A study of Saccharomyces cerevisiae with 8 samples.

Results

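snR60 is a box C/D small nucleolar RNA (snoRNA) of budding yeast that guides ribose methylation of A817 and G908 in 25S rRNA. It is described here through its own read ends and through the methylation scores of both target nucleotides. The reference named snR60_extended, which holds the snoRNA with its flanks, was 1 of 15 reference RNAs in the deposited tables, and A817 and G908 were 2 of 55 annotated methylation sites. They were taken by name, from general knowledge of yeast guide RNAs, with earlier results of these data known. snR60 was read in the 4 libraries of WT and Delta_Dbp3, and both sites were read in all 8 libraries. snR60 in the PRP43 libraries is not analysed here.

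In box C/D snoRNPs, the snoRNA pairs with rRNA by a guide stretch just upstream of box D or of the internal box D', and the methyltransferase fibrillarin (Nop1 in yeast) modifies the rRNA nucleotide that pairs with the fifth snoRNA nucleotide upstream of that box. The pairing forms on precursors of the ribosome and has to be undone as these mature. RNA helicases take part in that step, and the comparisons address what such helicases do to snoRNPs on precursors and to methylation of rRNA. Dbp3 is a DEAD-box helicase of large-subunit assembly. Prp43 is a DEAH-box helicase that works both in ribosome assembly and in spliceosome disassembly.

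Whole cell RNA from exponentially growing Saccharomyces cerevisiae was read by RiboMeth-seq, in which alkali cuts the RNA and a 2'-O-methyl group shields the bond next to it, so that few fragments end at a methylated nucleotide. There were 4 groups of 2 libraries, which the design calls biological duplicates. WT is the wild type, Delta_Dbp3 is labelled as lacking Dbp3, and PRP43_Gal and PRP43_Glu are the strain in which a GAL promoter drives PRP43, labelled by galactose or glucose. The labels name no strain background, no time in glucose and no single medium for WT and Delta_Dbp3. Sugar and promoter state change together between PRP43_Gal and PRP43_Glu, so they cannot be told apart. DBP3 and PRP43 transcripts are not analysed here, so the labels could not be checked against them. Libraries held from 5557319 to 14191112 read ends on 18S plus 25S rRNA. Per the file headers, one set of barcodes served for Delta_Dbp3 and again for PRP43_Glu, and their controls had different ones, so the effects of barcode and group cannot be told apart in either main comparison.

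The sequences that join snR60 to its targets are shown first, all 5′ to 3′ and as the deposited tables give them. The first is snR60 from nucleotide 76 to 182 of its reference of 254 nt, with boxes C, D', C' and D in capitals in that order. In each guide the capital is the snR60 nucleotide that faces the methylated one, and the last 4 letters are box D' or box D. In each target the capital is the methylated nucleotide.
snR60, 76 to 182: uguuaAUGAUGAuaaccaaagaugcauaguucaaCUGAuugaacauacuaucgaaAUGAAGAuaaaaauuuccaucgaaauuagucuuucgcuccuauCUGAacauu
snR60 guide for A817, 99 to 113: gcauagUucaacuga
25S target with A817, 814 to 823: ugaAcuaugc
snR60 guide for G908, 155 to 177: auuagucuuucgcuCcuaucuga
25S target with G908, 904 to 922: auagGggcgaaagacuaau

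Box C matched its consensus at nucleotides 81 to 87 with 0 mismatches, and box C' at 131 to 137 with 1. Box D' lay at 110 to 113 and box D at 174 to 177, so box C to box D spanned 97 nt. A817 faced nucleotide 105, 5 nt upstream of box D', within 10 Watson-Crick pairs that ended 1 nt before the box. G908 faced nucleotide 169, 5 nt upstream of box D, within 19 pairs, 1 of them G-U, that ran up to the box. The computed duplex energy was -13 kcal/mol for the A817 pairing and -28.4 kcal/mol for the G908 pairing. Both targets lie 91 nt apart in 25S, and G908 has the longer and more stable pairing of the pair. Over the 107 nt of snR60 shown and the 5196 nt of 18S and 25S, 17 unbroken stretches of at least 10 pairs were found. The G908 stretch was the longest, the next was 12 pairs, and 1 of the 17, that of A817, held no G-U pair. These matches describe letters, not binding. RefSeq lists snR60 as a snoRNA gene of 104 nt that overlaps the protein-coding gene YJL047C-A, and reads from either could fall on the same reference.

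Reads on the snR60 reference came almost wholly from the snoRNA. Read ends between box C and box D made up 91.9% and 94.3% of the total in WT replicates A and B, and 96.5% and 94.3% in Delta_Dbp3. The outer flanks, nucleotides 1 to 70 and 188 to 254, held 8 read ends in each WT library and 8 and 1 in Delta_Dbp3. These were 0.644% and 0.574% of the WT ends and 0.588% and 0.129% of the Delta_Dbp3 ends, with exact 95% binomial intervals from 0.00327% to 1.26% over the 4 libraries. Forms of snR60 that reach into these outer flanks were therefore at or near the limit of what these counts can show in both groups. Shorter extensions are not covered by this, and nucleotides 178 to 187 held 3 and 33 read ends in WT and 30 and 10 in Delta_Dbp3. The intervals cover counting error only.

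**Figure D1:**
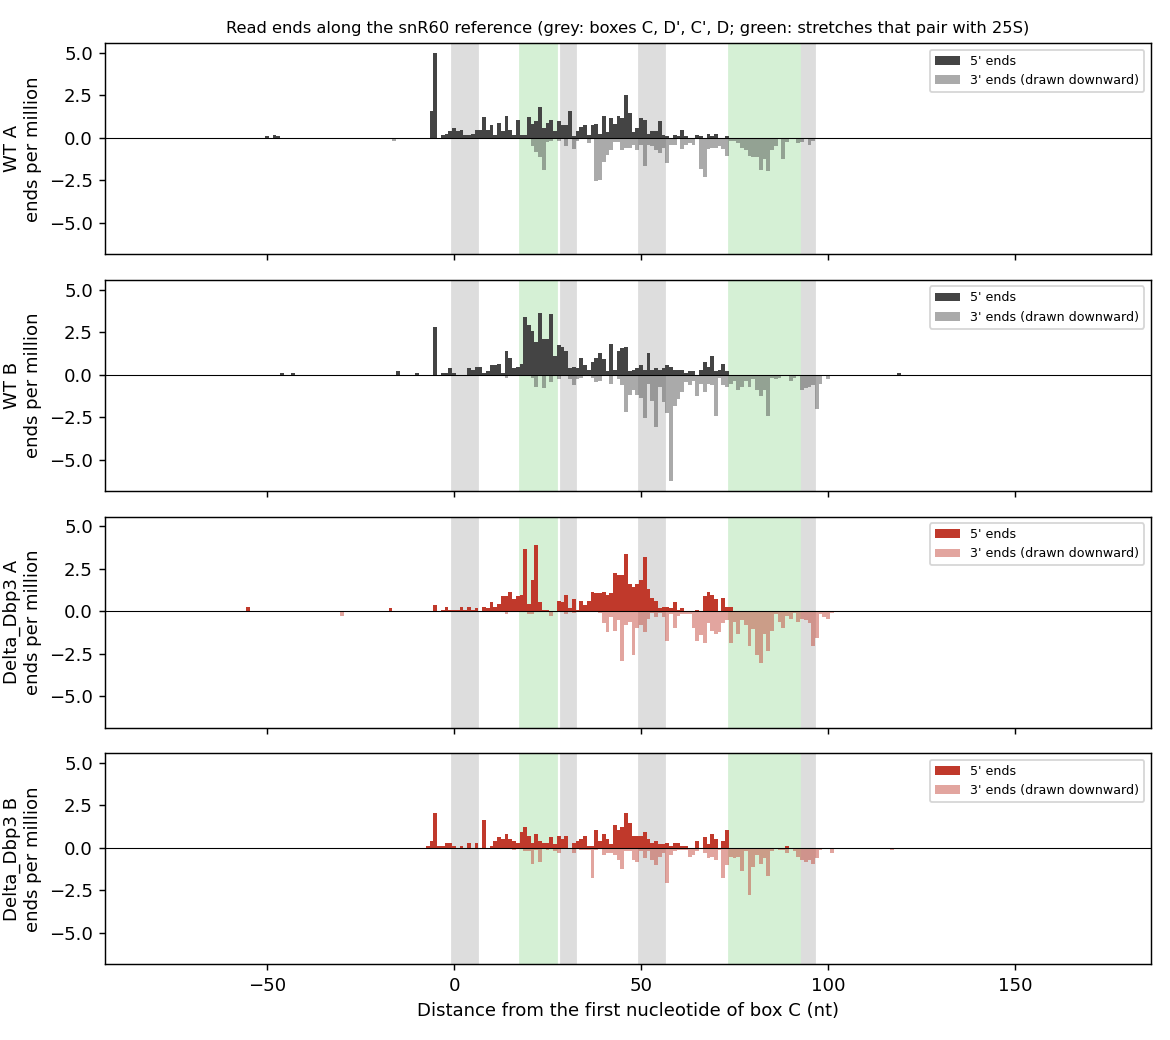
Read ends per 1000000 read ends on 18S plus 25S (vertical axis) along the snR60 reference by distance from the first nucleotide of box C (horizontal axis, nt), 1 panel for each WT and Delta_Dbp3 library. Bars above 0 are 5' ends and bars below 0 are 3' ends. Ends lie almost wholly between the 5' end of the snoRNA, just before box C, and box D, and their local pattern differs between duplicates of a group.

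The summed level of snR60 overlapped between the groups. The reference held 1243 and 1394 read ends in WT and 1360 and 775 in Delta_Dbp3, where each read counts once at either end. Scaled per 1000000 read ends on 18S plus 25S these were 102 and 127 in WT and 121 and 79.8 in Delta_Dbp3. One Delta_Dbp3 library lay between both WT libraries and the other below them. The means were 114 ± 17.7 and 100.3 ± 29.1 (SD, n = 2 here and below). The difference of Delta_Dbp3 from WT was -0.21 on the log2 scale (exact permutation test, two-sided, p = 0.667), and 0.333 is the smallest p that 2 libraries against 2 allow. Leaving out Delta_Dbp3 replicate A gave -0.51 and leaving out Delta_Dbp3 replicate B gave 0.09, so that library sets the direction. Relative to the other 3 snoRNA references in place of rRNA, the difference was -0.67 and the groups no longer overlapped (exact permutation p = 0.333). Fewer cells with the RNA and less RNA per cell cannot be told apart in such bulk samples.

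The other 3 snoRNA references are given for comparison. snR63 had 172 and 212 read ends per 1000000 in WT and 268.7 and 268.8 in Delta_Dbp3, without overlap, a log2 difference of 0.49 (exact permutation p = 0.333). snR18, the U18 snoRNA, had a log2 difference of 0.62 and snR24, the U24 snoRNA, one of -0.15, and in both the groups overlapped (exact permutation p = 0.667 each). Of the 4 references, snR63 was thus the single one whose groups did not overlap per 1000000 rRNA ends.

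**Figure D2:**
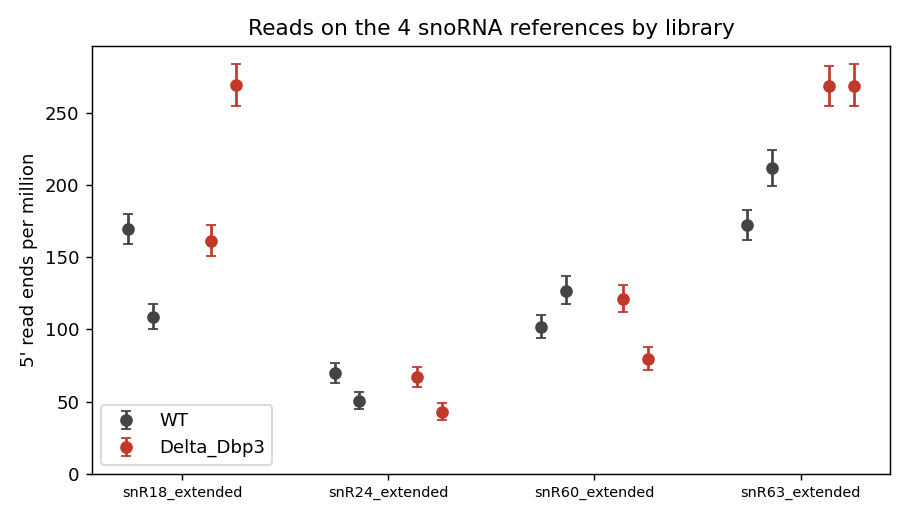
5' read ends on each of the 4 snoRNA references per 1000000 such ends on 18S plus 25S (vertical axis), 1 point per library with its exact 95% binomial interval, which covers counting error only. The WT and Delta_Dbp3 points of snR60 overlap, and both Delta_Dbp3 points of snR63 lie above both WT points.

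Within snR60, the share of read ends toward the 5' side of the snoRNA was higher in both WT libraries than in both Delta_Dbp3 libraries. From box C to box D', the side that pairs with A817, the share was 28% and 31.6% in WT and 19% and 22.1% in Delta_Dbp3. From box C' to box D, the side that pairs with G908, it was 37.4% and 45.1% in WT and 48.9% and 46.1% in Delta_Dbp3. In neither region did the groups overlap in the sum of both end types, and each exact permutation p was 0.333. Any full separation of 2 libraries from 2 gives that p, the smallest possible, so neither difference could pass 0.05. Like regions of the other snoRNA references were not compared. From 3' ends alone the groups overlapped in both regions. The guide stretch for A817 alone held 12.8% and 20.7% in WT and 10.1% and 10.6% in Delta_Dbp3. The stretch for G908 held 13.3% and 8.54% in WT and 18.3% and 15.4% in Delta_Dbp3. Both stretches lie within the sides just given, and in summed ends their groups did not overlap either (exact permutation p = 0.333 each). For A817 the groups overlapped from either end type alone. All these shares are parts of the same total per library, so they depend on each other and are not separate support. In the stretch between box D' and box C', which pairs with neither target, the groups overlapped in summed ends. The shares there were 26.5% and 17.6% in WT and 28.7% and 26.2% in Delta_Dbp3. Its 5' ends alone gave 29% and 21.7% in WT and 37.5% and 33.7% in Delta_Dbp3, without overlap (exact permutation p = 0.333).

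The 5' end of the snoRNA stood out as a peak of 5' ends at nucleotides 75 and 76. It held 80 of 621 and 31 of 697 5' ends in WT, which is 12.9% and 4.45%. In Delta_Dbp3 it held 4 of 680 and 24 of 386, which is 0.588% and 6.22%. Delta_Dbp3 replicate A stood low, while the other Delta_Dbp3 library lay between both WT libraries.

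Single nucleotides of snR60 were tested with edgeR in 1 fit over all references, where 5436 nucleotides had a mean of at least 10 read ends per library. Of the 254 nucleotides of the snR60 reference, 51 had that many. In that fit 0% of all nucleotides passed in either direction at an adjusted p of 0.05, and of snR60 0 of 51 passed. On simulated counts such a fit recovered 1.5% of nucleotides raised 4-fold, so rises of that size would mostly be missed. The raised nucleotides were drawn from all 5436. Falls, and nucleotides with counts as low as those of snR60 taken alone, were not simulated. At an unadjusted p under 0.05, 5 of the 51 were lower in Delta_Dbp3 and 0 were higher, where of all 5436 nucleotides 3.75% were lower and 5.92% higher. Scaled to the read ends on snR60 itself, 2 were lower and 2 higher. DESeq2 called 0 of snR60, with 6 lower unadjusted, and called 0.938% of all nucleotides lower and 0.736% higher. The median log2 difference was -0.07 over the 51 and 0.16 over all 5436. The 5 nucleotides with the most read ends were 127, 132, 126, 76 and 103. Nucleotide 127, between box D' and box C', had 38 and 42 read ends in WT and 47 and 22 in Delta_Dbp3. Nucleotide 132, in box C', had 33 and 31 in WT and 50 and 15 in Delta_Dbp3. At nucleotides 126 and 103 the 2 WT libraries held 23 and 24, and 22 and 29, and the Delta_Dbp3 libraries 57 and 24, and 44 and 9. At nucleotide 76, the 5' end, the counts were 61 and 31 in WT and 4 and 20 in Delta_Dbp3, where both Delta_Dbp3 libraries were lower. None of these 5 passed (edgeR adjusted p from 0.547 to 0.977), and duplicates of 1 group could lie as far apart as 44 and 9.

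Without Dbp3, methylation was lower at both targets of snR60. The score is a fraction: the read ends found at a position are divided by those expected from its 6 neighbours on each side, and the quotient is taken from 1. A817 scored 0.927 and 0.941 in WT and 0.652 and 0.629 in Delta_Dbp3. G908 scored 0.904 and 0.928 in WT and 0.569 and 0.466 in Delta_Dbp3. At both sites each Delta_Dbp3 library lay far below each WT library, and the duplicates of G908 in Delta_Dbp3 were the farthest apart. A817 fell by 0.294 (SE 0.0175, limma adjusted p = 0.000606). G908 fell by 0.399 (SE 0.0351, limma adjusted p = 0.00143). Of all 55 sites 20% passed in this direction, and both libraries lay below both at 69.1%, so the lack of overlap was common while the call was not. Over all 55 sites the median difference was -0.0327, and G908 and A817 stood 4th and 7th from the most downward one.

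**Figure D3:**
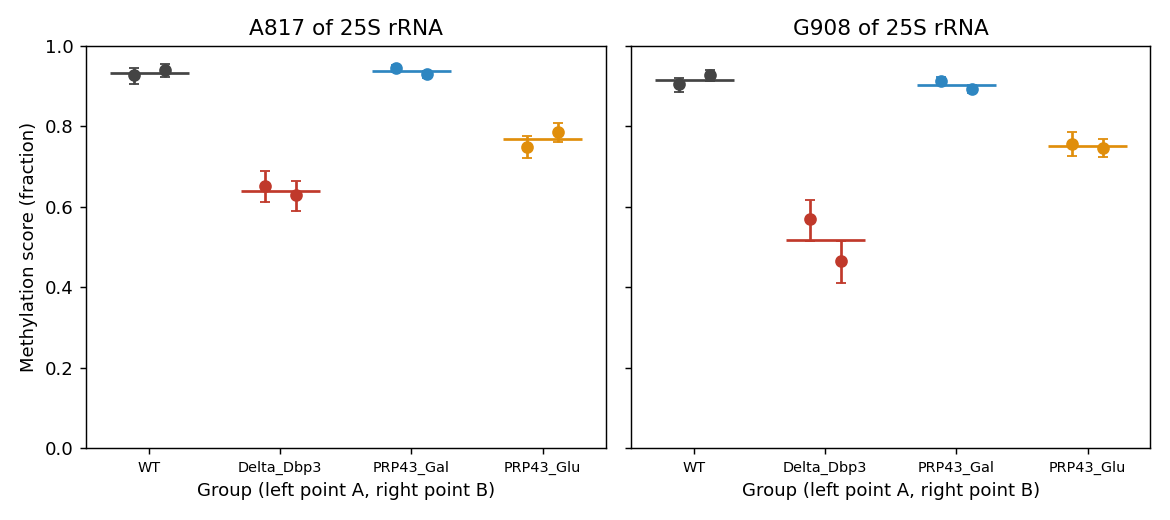
Methylation score as a fraction (vertical axis) at A817 and G908 in the 4 groups (horizontal axis), with library A at the left and B at the right of each group, and the horizontal line at their mean. Bars are 95% Poisson intervals of the read ends at the site and cover counting error only. Both sites lie lowest in Delta_Dbp3, next in PRP43_Glu, and at 0.893 or more in every WT and PRP43_Gal library.

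The counts behind these scores were small in WT. At A817 there were 57 and 54 read ends in WT where 780 and 915 were expected, and 318 and 380 in Delta_Dbp3 where 913 and 1024 were expected. At G908 there were 111 and 104 in WT against 1159 and 1450 expected, and 278 and 421 in Delta_Dbp3 against 645 and 788 expected. Scaled per 1000000, read ends at A817 went from 4.79 ± 0.172 to 33.7 ± 7.67, while the expected ends were 73.5 ± 13.7 and 93.3 ± 17.2. At G908 they went from 9.27 ± 0.26 to 34 ± 13.2, while the expected ends were 113 ± 26.1 and 69.2 ± 16.8. At both sites the read ends at the methylated nucleotide itself were higher in both Delta_Dbp3 libraries than in both WT libraries. How often read ends separate in this way over all annotated sites was not counted. The expected ends at A817 overlapped between the groups, and those at G908 were lower in both Delta_Dbp3 libraries than in both WT libraries.

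The 5' and 3' ends of fragments read the same nucleotide separately, and they did not give the same size of change. At A817, 5' ends alone gave 0.934 and 0.941 in WT and 0.621 and 0.63 in Delta_Dbp3. The 3' ends alone gave 0.898 and 0.942 in WT and 0.848 and 0.628 in Delta_Dbp3, on 15, 13, 19 and 128 ends. From 3' ends A817 no longer passed (difference -0.182, limma adjusted p = 0.303), with Delta_Dbp3 replicate A far closer to WT than replicate B. At G908, 5' ends alone gave 0.879 and 0.88 in WT and 0.233 and 0.0475 in Delta_Dbp3. The 3' ends alone gave 0.913 and 0.954 in WT and 0.74 and 0.672 in Delta_Dbp3. G908 thus had its 2 Delta_Dbp3 libraries below WT from either end, and the level left in Delta_Dbp3 was far lower by 5' ends than by 3' ends.

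The signal at both targets was local. Among the 25 nucleotides from 12 before to 12 after the site, G908 had the fewest read ends in each WT, PRP43_Gal and PRP43_Glu library and ranked 2nd and 3rd lowest in Delta_Dbp3. In Delta_Dbp3 the nucleotide 2 nt after G908 was lower, at 0.352 and 0.364 of the ends expected at G908, against 0.431 and 0.534 at G908 itself. A817 ranked from 2nd to 4th lowest in the 8 libraries. The annotated site G805, 12 nt before it, was lower in all 8, and A807, 10 nt before it, was lower in all but the PRP43_Glu libraries. One nucleotide on either side of A817 the ratio was between 0.516 and 1.51, and beside G908 between 0.597 and 1.5, in all 8 libraries. A lowered score was thus read at the methylated nucleotide against neighbours that themselves varied between libraries.

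**Figure D4:**
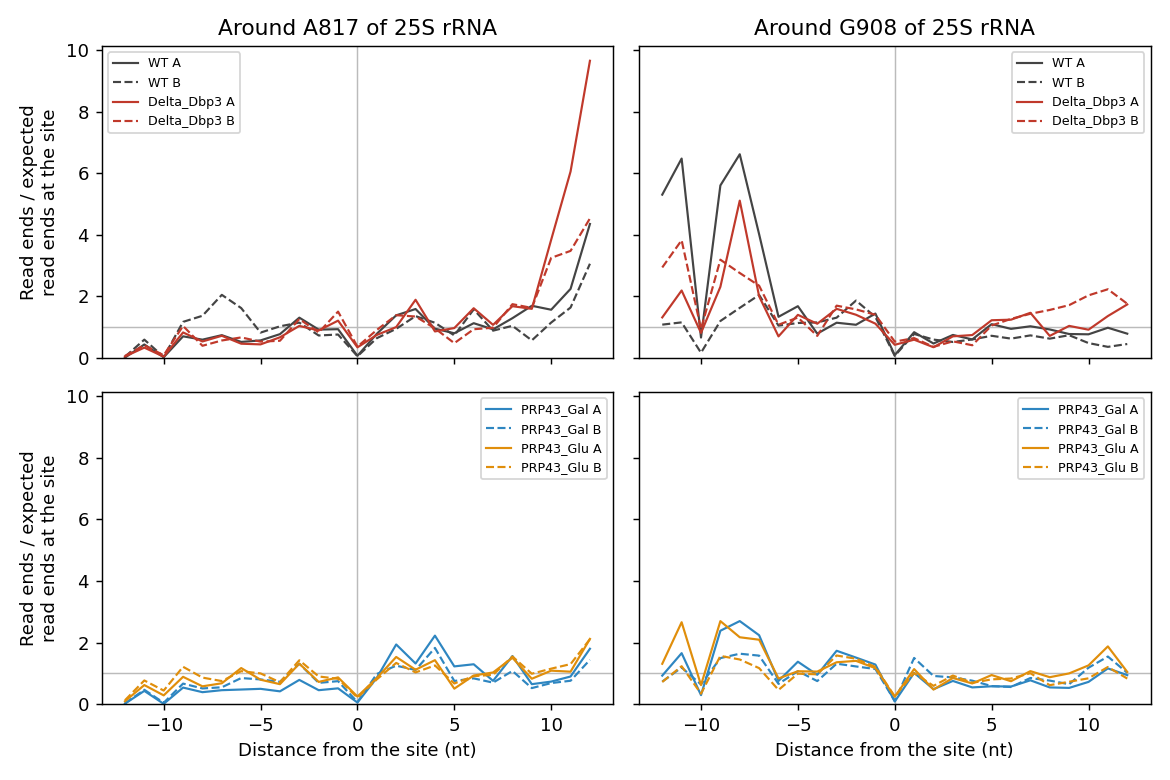
Read ends at each nucleotide divided by the read ends expected at the site (vertical axis) from 12 nt before to 12 nt after A817 (left) and G908 (right), by distance from the site (horizontal axis, nt). The upper panels show WT and Delta_Dbp3 and the lower ones PRP43_Gal and PRP43_Glu, with 1 line per library, solid for A and dashed for B. The dip at distance 0 is shallower in Delta_Dbp3 than in WT and in PRP43_Glu than in PRP43_Gal.

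With PRP43 in glucose, both targets were also lower than in galactose, by less. A817 scored 0.945 and 0.93 in PRP43_Gal and 0.749 and 0.786 in PRP43_Glu. G908 scored 0.913 and 0.893 in PRP43_Gal and 0.757 and 0.747 in PRP43_Glu. Again no PRP43_Glu library reached a PRP43_Gal library at either site, as at 65.5% of all sites. The limma difference was -0.170 at A817 (SE 0.0175, adjusted p = 0.000931) and -0.151 at G908 (SE 0.0351, adjusted p = 0.0143). Each SE is pooled over all 4 groups. At G908 the SD was 0.0731 in Delta_Dbp3, outside this comparison, and 0.0137 in PRP43_Gal and 0.00727 in PRP43_Glu. With only the PRP43 groups fitted, the limma adjusted p was 0.00927 at A817 and 0.00836 at G908. In this comparison 54.5% of the 55 sites passed downward and the median difference was -0.125, so passing here did not set the snR60 targets apart from most sites. They stood 20th and 24th from the most downward site. From 3' ends alone A817 did not pass (-0.145, limma adjusted p = 0.209), and from 5' ends alone G908 did not (-0.163, limma adjusted p = 0.0763). G908 also failed narrowly without PRP43_Gal replicate A (limma adjusted p = 0.0637), PRP43_Glu replicate A (0.0557) or PRP43_Glu replicate B (0.0664).

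The read ends at the sites were more numerous here than in WT. A817 had 193 and 237 read ends in PRP43_Gal, where 3481 and 3402 were expected, and 337 and 333 in PRP43_Glu, where 1344 and 1556 were expected. G908 had 307 and 487 in PRP43_Gal against 3513 and 4562 expected, and 265 and 485 in PRP43_Glu against 1092 and 1917. When scaled per 1000000, A817 went from 16.1 ± 0.795 to 54 ± 9.46 and G908 from 29.5 ± 6.75 to 58.3 ± 15. The groups did not overlap at either site, and how common this is over all annotated sites was not counted. The expected ends per 1000000 in PRP43_Gal were 260.3 ± 29.1 for A817 and 302 ± 26.9 for G908, above both WT values given before. The 25S nucleotides around both targets were thus sampled more densely in PRP43_Gal than in WT.

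Between the PRP43 strain in galactose and WT, the libraries overlapped at both targets. The limma difference was 0.0035 at A817 (95% interval -0.0411 to 0.0481, adjusted p = 0.934) and -0.0133 at G908 (95% interval -0.103 to 0.0761, adjusted p = 0.898). The interval at G908 is the wider one, and it rests on a spread pooled over all 4 groups. The SD at G908 was 0.017 in WT and 0.0137 in PRP43_Gal, but 0.0731 in Delta_Dbp3, which is not in this comparison. Of the 55 sites 0% passed in limma in either direction and 4 had an unadjusted p under 0.05, on the fraction scale. Limma on log2 odds called 6 sites, and edgeR on read ends also called 6. The 2 groups separated fully, with PRP43_Gal lower, at 45.5% of sites, to which A817 and G908 did not belong. In glucose the PRP43 strain was lower than WT at A817 (difference -0.166, limma adjusted p = 0.000937) and at G908 (difference -0.164, limma adjusted p = 0.0104). With only PRP43_Glu and WT fitted, the limma adjusted p was 0.00573 at A817 and 0.00415 at G908. Of all sites 67.3% passed downward in that comparison, and both libraries lay below both at 92.7%. G908 did not pass that comparison without WT replicate B (limma adjusted p = 0.0608) or without PRP43_Glu replicate B (0.0508), and A817 did not pass it from 3' ends alone (difference -0.12, limma adjusted p = 0.238). These comparisons share the WT libraries with that of Delta_Dbp3, and the WT and PRP43 tables list different reference RNAs, so strain, medium and processing cannot be told apart in them.

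The falls at both targets were larger in Delta_Dbp3 than in PRP43_Glu, each against its own control. Tested against each other, the changes differed by -0.124 at A817 (SE 0.0247) and -0.248 at G908 (SE 0.0496), with a limma adjusted p of 0.013 each. Over all sites 7.27% passed in that direction and 34.5% in the other, with a median of 0.0562, so the direction at A817 and G908 was that of few sites. Neither call held with edgeR on read ends (adjusted p = 0.576 at A817 and 0.188 at G908), on the log2 odds scale (0.35 and 0.0855) or from 3' ends alone (0.897 and 0.338). Without WT replicate B both had a limma adjusted p of 0.0578, and without PRP43_Gal replicate B that of A817 was 0.0527.

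The order of both targets was nearly the same in every group. G908 scored below A817 in both libraries of WT (by 0.0227 and 0.0127), Delta_Dbp3 (0.0829 and 0.164) and PRP43_Gal (0.0319 and 0.0371). In PRP43_Glu it scored above A817 by 0.008 in replicate A and below it by 0.0389 in replicate B. The gap was thus widest in both Delta_Dbp3 libraries, and this contrast was not tested. In WT neither target was among the most fully methylated sites, since the median over the 55 sites was 0.968 and 0.967 in the 2 WT libraries. Counted from the lowest score, A817 ranked 12th and 16th and G908 7th and 13th in WT, and they ranked 7th and 4th in both Delta_Dbp3 libraries. Ordered by level, A817 went from PRP43_Gal and WT, which did not differ beyond their spread, down to PRP43_Glu and then Delta_Dbp3, and G908 from WT and PRP43_Gal, which likewise did not, down to the same groups in the same order.

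From G805 to G908 of 25S, 5 other annotated sites flank or lie between the snR60 targets. In Delta_Dbp3 2 of them passed downward, G867, from 0.953 ± 0.0104 to 0.805 ± 0.0575, and G805, from 0.968 ± 0.00886 to 0.884 ± 0.0266. A807 and U898 did not pass (limma adjusted p = 0.232 each), nor did A876 (0.135), whose Delta_Dbp3 libraries scored 0.708 and 0.214. The median difference over these 5 was -0.148, smaller than at A817 and G908, while single values ran from -0.0842 at G805 to -0.475 at A876, beyond both snR60 targets. In PRP43_Glu against PRP43_Gal 3 of the 5 passed downward, A807 by -0.481, G867 by -0.327 and G805 by -0.123, and the median over the 5 was -0.327, larger than at the snR60 targets. A807 and G867 passed the same test of one change against the other, in the direction opposite to A817 and G908 (0.382 and 0.179, limma adjusted p = 0.0122 and 0.0266). The authors' group means carry a correction at A876 in PRP43_Glu and at U898 in PRP43_Gal, which the library scores used here do not. Their Delta_Dbp3 means at A876 and U898 carry none. Delta_Dbp3 replicate B has the barcode of PRP43_Glu replicate A, the library corrected at A876. A part of that barcode in the Delta_Dbp3 scores was not tested.

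Across the 8 libraries the pattern of each snR60 target was most like that of the other. Likeness was the Euclidean distance between scores taken as differences from the WT mean of each site, over 54 other sites, as a description. G908 was nearest to A817 at a distance of 0.165, ahead of C2959 (0.233) and A649 (0.237) of 25S. For G908 the next after A817 (0.165) were U1269 of 18S (0.214) and C2948 of 25S (0.335). U1269 shared the fall in Delta_Dbp3, from 0.974 ± 0.0128 to 0.577 ± 0.08, but scored 0.942 ± 0.0119 in PRP43_Gal and 0.958 ± 0.00407 in PRP43_Glu. C2948 went from 0.616 ± 0.0485 in WT to 0.263 ± 0.0149 in Delta_Dbp3. In the PRP43 strain it went from 0.674 ± 0.0588 in galactose to 0.264 ± 0.108 in glucose. C2959 went from 0.926 ± 0.0557 in WT to 0.778 ± 0.0448 in Delta_Dbp3, and A649 from 0.985 ± 0.00633 to 0.84 ± 0.00992, both with smaller falls than A817. From PRP43_Gal to PRP43_Glu their differences were larger than that of A817, at -0.202 for C2959 and -0.237 for A649. The 8 libraries shared by all sites set part of such likeness.

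**Figure D5:**
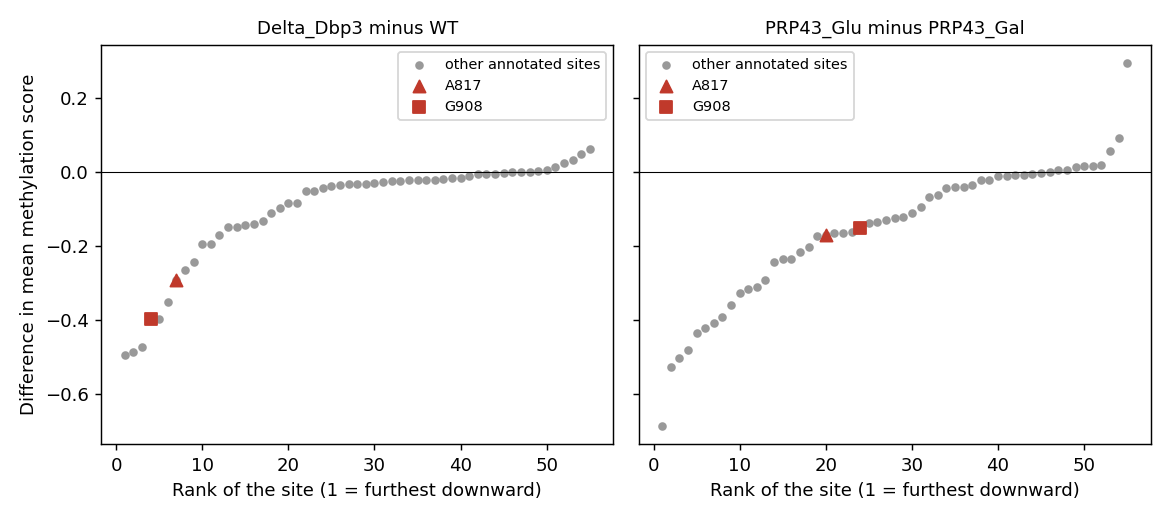
Difference in mean methylation score (vertical axis) for the 55 annotated sites, ordered from the most downward (horizontal axis, rank), for Delta_Dbp3 minus WT (left) and PRP43_Glu minus PRP43_Gal (right). A817 is the triangle and G908 the square. Both lie in the steep lower part at the left, at ranks 7 and 4, and in the middle of the falling sites at the right, at ranks 20 and 24.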

How the data were processed

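Per the file headers, the authors deposited read-end counts, namely the number of reads with a 5' end, with a 3' end, and the sum, for each nucleotide and library, and a methylation score headed as a percentage and held as a fraction. Tools named in the submitters' processing notes are cutadapt 2.0 and Bowtie2 2.3.4.1. Roles, parameters and reference build were not given in what was used here. The deposited fraction was recomputed from the counts (neighbour weights falling from 1 to 0.5, largest difference 5.00e-10 over 41376 values). The library scores, not the authors' group means, were used, since 6 of 220 means differ from the mean of their libraries under a barcode correction named in a header, none at A817 or G908. The 16 columns of 2 other scores per library were not used.

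Scores at 55 sites were fitted with limma 3.58.1 in R 4.3.3, over 8 libraries in 1 fit, and p-values were adjusted by Benjamini-Hochberg in each of 5 comparisons (threshold 0.05). That fit assumes normal errors and a spread pooled over the groups. Nucleotide counts were fitted with edgeR 4.0.16 (quasi-likelihood, library size as 18S plus 25S read ends, mean of at least 10), with DESeq2 1.42.0 as an alternative. Sums and shares used exact permutation tests in scipy 1.17.1, and duplex energies RNAduplex 2.7.2. The fits were tested on simulated data. There limma recovered 83.8% of sites lowered by 0.3. The edgeR fit recovered 1.5% of nucleotides raised 4-fold and 95.5% of those raised 16-fold. These were drawn from all nucleotides tested, not from snR60 alone, and falls in read ends were not simulated. Replicate letters were not treated as pairs. Alternatives were other denominators, filters, scales, neighbours, end types, tools and each library left out.

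Sites named besides the snR60 targets are the annotated ones from G805 to G908 and the 3 nearest by pattern. Of snR60 nucleotides, the rule names the passing ones or else the 5 with the most read ends. The start peak and 5 others were named after their values were seen. The members and lists were chosen with earlier results of these data known.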

Additional observations from a re-analysis of the deposited data

Results flagged for a closer look

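The change in Delta_Dbp3 against WT and the change in PRP43_Glu against PRP43_Gal differed at both snR60 targets by a test of the difference itself (limma, all 8 libraries). At A817 the difference was -0.124 (adjusted p = 0.013) and at G908 -0.248 (adjusted p = 0.013), further downward in Delta_Dbp3. These calls depend on the scale, since neither held on log2 odds (limma adjusted p = 0.35 and 0.0855), with edgeR on read ends or from 3' ends alone. Barcodes coincide with groups in both comparisons, and their part in the result was not tested.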

How the results depend on the processing

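Alternatives numbered 10 for each comparison at a site (9 for the difference between both changes) besides leaving out each library. The call of G908 in Delta_Dbp3 against WT held in all 18. From 3' ends alone A817 did not pass in Delta_Dbp3 (-0.182), in PRP43_Glu against PRP43_Gal (-0.145) or against WT (-0.12). From 5' ends alone G908 did not pass in PRP43_Glu against PRP43_Gal (-0.163). In PRP43_Gal against WT, which passed nowhere at either site, the sign turned at A817 from 5' ends (-0.00734) and at G908 from 3' ends (0.00582). The difference between both changes did not pass at A817 with 2 neighbours (-0.0941), 3' ends (-0.0368), trend and robust moderation (-0.124), log2 odds (-0.81) or edgeR (-0.55, as minus log2 of read ends over expected), nor at G908 with 3' ends (-0.079), log2 odds (-1.74) or edgeR (-1.18). With 1 library left out, differences at A817 and G908 ranged from -0.305 to -0.282 and from -0.451 to -0.347 in Delta_Dbp3, from -0.188 to -0.152 and from -0.16 to -0.141 in PRP43_Glu against PRP43_Gal, from -0.0036 to 0.0106 and from -0.0253 to -0.00128 in PRP43_Gal against WT, from -0.185 to -0.148 and from -0.176 to -0.152 in PRP43_Glu against WT, and from -0.142 to -0.105 and from -0.300 to -0.197 for the difference between both changes. The summed level of snR60 ranged from -0.51 to 0.09 on the log2 scale, and was -0.67 per other snoRNA read ends. No alternative called a nucleotide of snR60 (0 in each), and a mean of at least 50 read ends left none to test. The cause of these changes was not tested.

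With the replicate letter as a block, Delta_Dbp3 against WT gave -0.294 at A817 and -0.399 at G908 (limma adjusted p = 0.00463 each), and the block changed no call at A817, G908 or in snR60. No label says whether the letters pair the libraries. Deviations of same-letter libraries over the 55 sites correlated from -0.453 to 0.323 between groups, which cannot settle it. Delta_Dbp3 and PRP43_Glu correlated at -0.438 by letter, and the barcodes they share join A of one group with B of the other. PRP43_Gal and PRP43_Glu, which share no barcode, had the lowest correlation, -0.453. A part of barcodes in these deviations was not tested. With 2 libraries a group, calls rest on the error model of limma or edgeR. snR60 held 775 to 1394 read ends a library, and 51 of its 254 nucleotides could be tested.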

Other observations

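Of the 51 snR60 nucleotides with enough read ends, 5 were lower in Delta_Dbp3 at an unadjusted p under 0.05 in edgeR, and they were chosen here after their values were seen. Of all 5436 nucleotides 3.75% were lower at that p, and scaled to the read ends on snR60 itself 2 of the 51 were lower and 2 higher. Nucleotides 104 to 107 lie in the stretch that pairs with the A817 region, and the fifth, 139, lies just after box C'. Nucleotide 105, which faces A817, had 30 and 32 read ends in WT and 1 and 3 in Delta_Dbp3, both lower than either WT library. Its log2 difference was -3.71 (edgeR, unadjusted p = 0.00213, adjusted p = 0.325), so it did not pass over all 5436 nucleotides. Nucleotides 104, 106 and 107 had 36 and 41, 14 and 24, and 15 and 44 read ends in WT, and 6 and 12, 1 and 4, and 3 and 6 in Delta_Dbp3. At nucleotide 139 a single WT library held most of the ends, with 5 and 74 in WT and 4 and 5 in Delta_Dbp3. In the same stretch nucleotide 103 had 22 and 29 in WT and 44 and 9 in Delta_Dbp3, with overlap. Nucleotide 100 had 3 and 37 in WT and 41 and 14 in Delta_Dbp3, and 102 had 16 and 30, and 23 and 12, both with overlap. Nucleotide 101 had 16 and 32 in WT and 7 and 9 in Delta_Dbp3 (edgeR, unadjusted p = 0.135). Nucleotides 104 to 107 are adjacent, and whether their counts are independent was not tested.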
